A study of Mus musculus with 34 samples.

Results

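Cumulus cells (CCs) of 2 lean control groups of one series were compared, 16 C (n = 3 libraries) with 4-week CD (n = 5), over all genes of the count table. The 8 libraries were chosen by their labels alone and are 8 of 34 in the series. All were from C57BL/6J females that entered the protocols at 8 weeks of age and were superovulated before collection. In 16 C the mice received saline intraperitoneally 2 times a day for 16 days, as the controls of a leptin treatment. In 4-week CD they were fed chow diet (CD) for 4 weeks, as the controls of a high-fat diet. Libraries of mice fed chow for 16 weeks (16-week CD, n = 6) were set beside both, as a further lean group. Each library was made from about 50 CCs of 1 mouse by Smart-seq2, in which cDNA primed on the poly(A) tail is amplified by PCR and carries no molecular identifier. The time between hCG and collection, and the diet of the saline mice, are not given in the sources used here. The injections, the feeding protocol, its length and so the age at collection, and the experiment each group belonged to changed together, so that these cannot be told apart.

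CCs are the granulosa cells that enclose the oocyte. After the LH surge or an hCG injection, EGF-like ligands released by the follicle wall induce them to make prostaglandins and a matrix of hyaluronan, proteins that link it and versican, and the cumulus expands. At the same time the cells leave the cell cycle, lose the genes that respond to FSH and start to make progesterone, which is called luteinization. Genes of each step are therefore read as a record of stage, and the comparison asks whether the saline CCs stood at another stage of expansion or luteinization than the 4-week chow CCs.

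The groups differed across the transcriptome. Of 11837 genes tested, 5655 passed an adjusted p of 0.05 in edgeR's quasi-likelihood test, which is 47.8% of them. In 16 C, 2856 (24.1%) were higher and 2799 (23.6%) were lower, and 4965 of the called genes differed by more than 1 on the log2 scale. Counts per 1000000, scaled by the TMM factors (CPM), did not overlap between the groups for 5430 genes, or 45.9%. The median log2 fold change of all tested genes was -0.09, with quartiles of -1.03 and 0.88. These directions are relative to the composition of each library, scaled by the TMM method, and a change given below as 1 number is a log2 fold change from this test. With total counts alone as the scale the median moved to -1.10, and 14.3% of calls were higher in place of 50.5%. The spread between libraries behind each p is that of separate mice within 1 experiment.

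**Figure D1:**
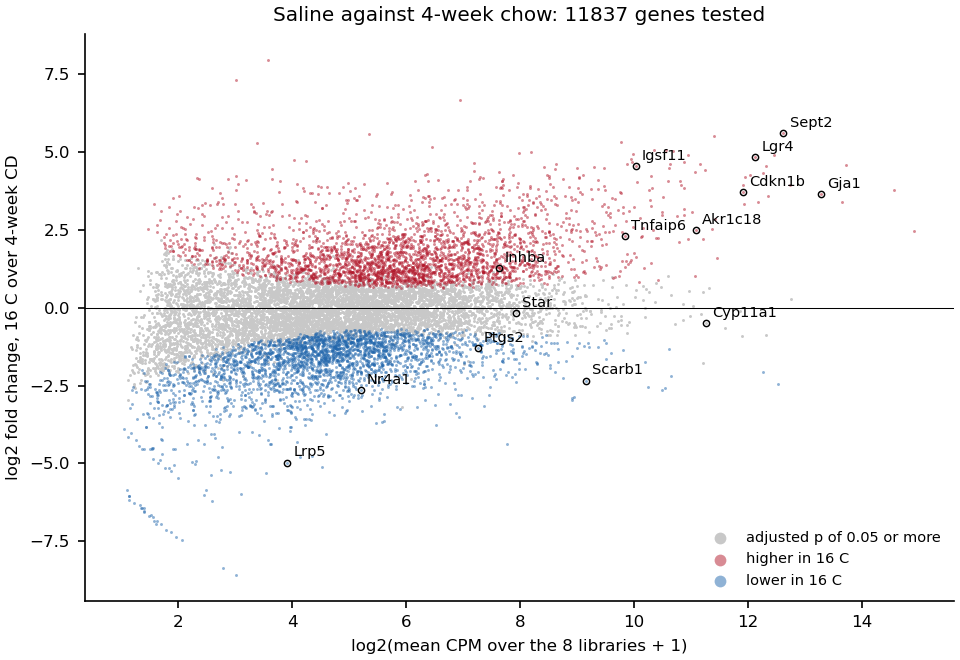
Log2 fold change of 16 C over 4-week CD (vertical axis) against log2 of the mean CPM over the 8 libraries plus 1 (horizontal axis), 1 point per gene tested. Red and blue points passed an adjusted p of 0.05 (2856 higher and 2799 lower), and the most abundant of the circled genes (Gja1, Sept2, Lgr4, Cdkn1b) lie on the higher side.

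The libraries themselves differed in the same split. Total counts ranged from 1789237 to 13207018 in 16 C and from 1363065 to 6608945 in 4-week CD. The 50 most abundant genes took 30.7% to 34.6% of the counts in 16 C and 13.7% to 18.5% in 4-week CD. Mitochondrially encoded genes took 0.335% to 0.628% against 0.828% to 7.72%, and ribosomal protein genes 1.16% to 2.00% against 2.80% to 3.53%. None of these 3 shares overlapped between the groups (two-sided exact permutation test, p = 0.0357 each, the smallest that 3 against 5 libraries allow). The number of genes with a count, 12028 to 14792 in 16 C and 13090 to 15346 in 4-week CD, overlapped (exact permutation p = 0.0714). Across the tested genes Spearman's rho was 0.94 to 0.98 between the 16 C libraries, 0.85 to 0.96 between the 4-week CD libraries and 0.71 to 0.82 between the groups, given as a description of libraries that share a protocol. The part of these measures in the gene differences was not tested.

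**Figure D2:**
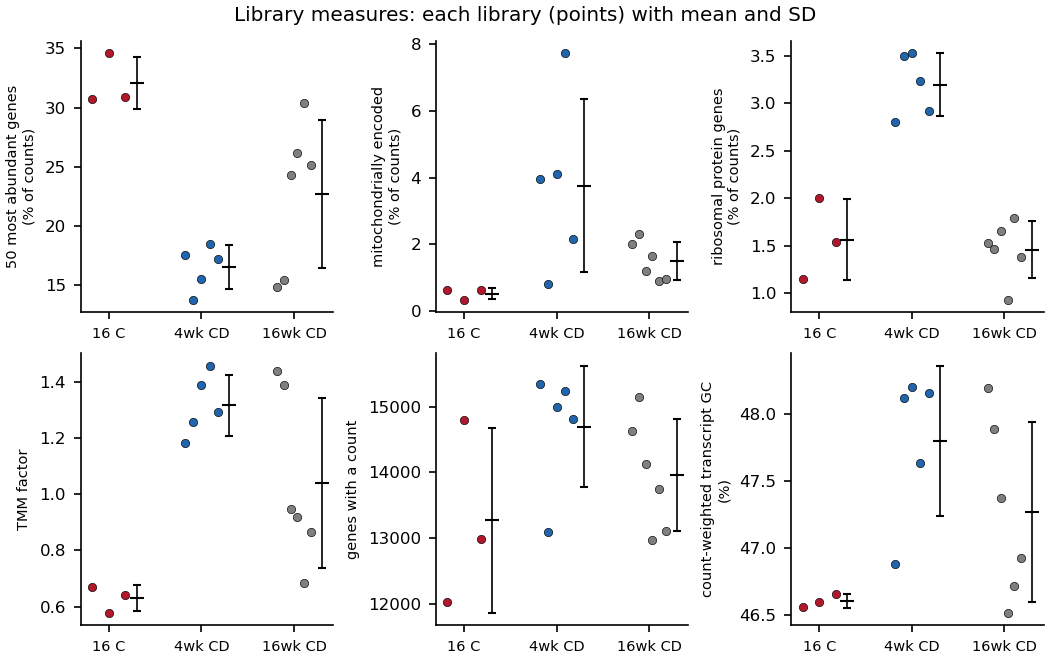
Measures of each library in 16 C (n = 3), 4-week CD (n = 5) and 16-week CD (n = 6): shares of counts in %, the TMM factor, the number of genes with a count, and the mean transcript GC content weighted by counts. Points are libraries, and bars are the mean and SD. The axes do not start at 0. The share of the 50 most abundant genes is 30.7% or more in 16 C and 18.5% or less in 4-week CD.

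Fold changes also followed the base composition of the transcripts. Genes higher in 16 C had a median transcript GC content of 46.9%, those lower 54.1% and those not called 48.5%. Of the genes with a GC content under 40%, 33.7% were higher and 6.98% lower, whereas at 60% or more 6.55% were higher and 60.7% lower. A correction for GC content and transcript length, added after the data were seen, left 4320 calls. Of the 5655 genes, 3392 (60.0%) were called in the same direction after it. Below, each described gene whose call ended or turned with this correction is named with its corrected value. Whether the gradient came from the libraries or the cells was not tested.

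**Figure D3:**
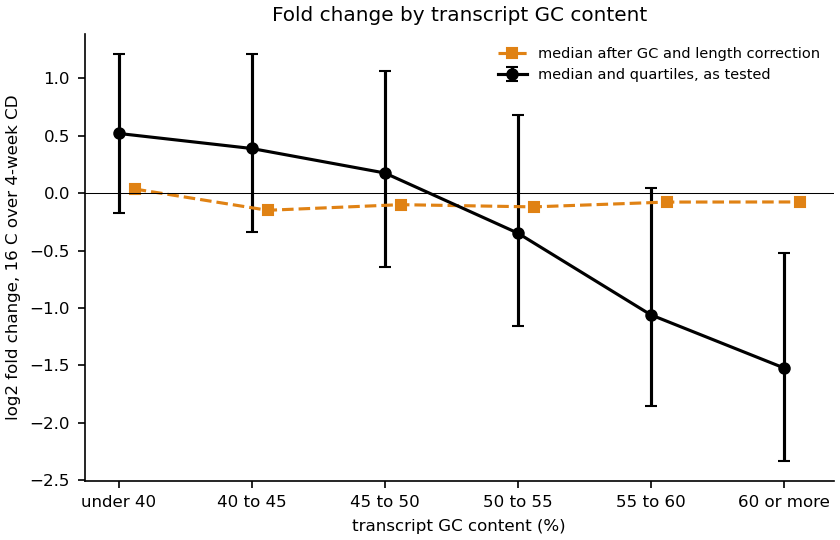
Log2 fold change of 16 C over 4-week CD (vertical axis) in 6 bins of transcript GC content (horizontal axis, %). Black points and bars are medians and quartiles as tested, from a median of 0.52 under 40% to -1.52 at 60% or more. Orange squares are the medians after the GC and length correction, between -0.15 and 0.04.

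The libraries carried most of the markers listed for cumulus and granulosa cells. Of 9 markers, 8 were tested, 5 were higher in 16 C (62.5%, against 47.8% of all genes) and 0 were lower, and 2 of the 8 were called, as higher, after the correction. Their summed level was 2970 to 3825 CPM in 16 C and 928 to 1308 CPM in 4-week CD. Inha, Fst, Tnfaip6 and Ptx3 were found in every library, and so were Has2, Foxl2 and Fshr, at 19.3 CPM or less. Wt1 had 17 reads in 16 C and 11 in 4-week CD, with 0 in 16 C replicate 1 and in 4-week CD replicates 2 and 8. Foxl2 was at -1.07 and not called in the main test (adjusted p = 0.0562), although its groups did not overlap. It was called lower under DESeq2 (-1.13, adjusted p = 0.0474) and limma-voom with sample quality weights (-1.11, adjusted p = 0.0145). With RLE factors, by total counts and without 4-week CD replicate 11 it was called lower too. After the correction Foxl2 was at 0.67 and not called. Has2, Tnfaip6 and Ptx3, among the 5 that were higher, belong to the expansion genes below as well. Oocyte markers were at or near 0, with a sum of at most 3.50 CPM in any of the 8 libraries, and Zp1, Zp2, Zp3, Oosp1 and Nlrp5 had no read. The stroma and theca list summed to at most 9.42 CPM and the endothelium list to between 10.6 and 41.3 CPM. Oviduct epithelium markers summed to 30.9 to 126 CPM in 16 C and 6.73 to 127 CPM in 4-week CD, most of it Ovgp1 except in 4-week CD replicate 11, with Foxj1 at 0. Of the leukocyte list, 9 of 10 markers were tested. Its sum was 168 to 848 CPM in 16 C, highest in replicate 2, and 98.7 to 542 CPM in 4-week CD, with Cd68 called higher and Cd52 and Emr1 lower in 16 C. None of the 3 calls held throughout. Cd68 was at log2 fold change 0.50, adjusted p = 0.238 after the correction, at 0.10 by total counts and lost without 16 C replicate 2 (adjusted p = 0.0709). Cd52, which overlapped between the groups, was lost without 16 C replicate 1 (adjusted p = 0.0746) or 2 (0.0877) and without 4-week CD replicate 7 (0.0517), and Emr1 without 16 C replicate 1 (0.0677) or 3 (0.0833). Of 5 red cell markers, 3 were in the count table, and their sum reached 33.5 CPM in 16 C and 3.39 CPM in 4-week CD. Replicate 2 held 138 of the 144 Hba-a1 reads of 16 C and 116 of its 117 Hba-a2 reads. Hba-a1 had 3 reads in 4-week CD (two-sided exact permutation test, p = 0.0357). In bulk libraries fewer cells of a type and less RNA per cell cannot be told apart.

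Genes of the expanding cumulus matrix were called in both directions. Of 12 list members tested, 6 rose, 2 fell and 4 did not pass (2 and 2 after the GC and length correction), a share of 66.7% called against 47.8% of all genes, with a median log2 fold change of 0.80 against -0.09. Tnfaip6 (chromosome 2, 52038009 to 52056686), whose product cross-links hyaluronan in the matrix, had the largest rise of the list. It stood at 1199, 2285 and 2026 CPM in 16 C and at 405, 228, 373, 340.5 and 451 CPM in 4-week CD. All 16 C libraries were above all 4-week CD libraries, and Tnfaip6 was 4.95-fold higher (log2 fold change 2.31, SE 0.34, adjusted p = 7.07e-05). After the GC and length correction the difference was a log2 fold change 0.87, adjusted p = 0.0408.

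Has2, the hyaluronan synthase of the cumulus, had few reads, 75 in 16 C and 37 in 4-week CD. Its level stood at 5.00, 6.96 and 6.61 CPM in 16 C and at 1.15, 0.584, 0.758, 3.01 and 2.59 CPM in 4-week CD. The groups did not overlap (log2 fold change 1.89, SE 0.60, adjusted p = 0.0172), but the call was lost without 16 C replicate 2 (adjusted p = 0.065), without 16 C replicate 3 (adjusted p = 0.0613) and with the correction (log2 fold change 1.46, adjusted p = 0.0666). Ptx3, a pentraxin that stabilizes the matrix, was at 25.0, 66.4 and 62.0 CPM in 16 C and at 21.0, 29.8, 24.8, 29.8 and 30.7 CPM in 4-week CD. The lowest 16 C library, replicate 1, lay among the 4-week CD libraries. Ptx3 passed (log2 fold change 0.90, SE 0.32, adjusted p = 0.0293) in 4 of the 8 fits that each left out 1 library. It was lost without 16 C replicate 2 (adjusted p = 0.154) or 3 (0.129) and without 4-week CD replicate 1 (0.0692) or 7 (0.0639). After the correction it had a log2 fold change 0.29, adjusted p = 0.49, and scaled by total counts it turned to -0.16, whereas Has2 was at 0.85 and not called. Cd44, the hyaluronan receptor, rose by 0.98 (adjusted p = 0.0454), the versican-cleaving protease Adamts1 by 1.27 (adjusted p = 0.028) and Uap1, which makes a hyaluronan precursor, by 0.89 (adjusted p = 0.0215).

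The 2 members that fell were Ptgs2 and Ptger2. Ptgs2 (chromosome 1, 150100124 to 150108010), the synthase that makes prostaglandins in expanding CCs, stood at 87.6, 76.2 and 80.5 CPM in 16 C and at 122, 181, 217, 87.8 and 363 CPM in 4-week CD. All 16 C libraries were below all 4-week CD libraries, although the highest of one and the lowest of the other nearly met. It was 2.46-fold lower (log2 fold change -1.30, SE 0.39, adjusted p = 0.0133, and log2 fold change -1.75, adjusted p = 0.00499 after the correction), and the call was lost without 16 C replicate 3 (adjusted p = 0.0523). Ptger2, the receptor for prostaglandin E2 that CCs carry, fell (-1.22, adjusted p = 0.027). Vcan, the matrix proteoglycan versican, was at 465, 334 and 402 CPM in 16 C and at 691, 863, 319, 273 and 662 CPM in 4-week CD. The groups overlapped and Vcan did not pass (log2 fold change -0.55, SE 0.39, adjusted p = 0.256, 95% confidence interval -1.39 to 0.28). The count of expansion genes called was the least stable of the 3 stage lists recounted. It was 2 without 16 C replicate 2, 2 without 16 C replicate 3 and 4 without 4-week CD replicate 7, and 4 after the correction, namely Tnfaip6 and Adamts1 higher and Ptgs2 and Ptger2 lower, with Cd44 at 0.80 and Uap1 at 0.37.

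The RefSeq promoter windows (GRCm38.p6, 250 bases before to 50 after the annotated start) of Tnfaip6 and Ptgs2, list members that moved in opposite directions, and of Akr1c18, described next, are shown with 2 motifs searched on both strands. These were the half-site of the cAMP response element, TGACG, and a binding motif of the NR5A receptors, AAGGTCA. The motifs do not overlap in these windows. Capitals mark a match.
Tnfaip6 (chr2:52037863-52038162, plus strand): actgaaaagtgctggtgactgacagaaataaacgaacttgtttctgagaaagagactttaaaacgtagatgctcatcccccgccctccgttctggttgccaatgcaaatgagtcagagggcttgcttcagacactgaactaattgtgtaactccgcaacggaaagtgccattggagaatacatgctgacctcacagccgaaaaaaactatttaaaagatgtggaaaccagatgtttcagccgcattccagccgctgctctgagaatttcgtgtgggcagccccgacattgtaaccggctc
Ptgs2 (chr1:150099781-150100080, plus strand): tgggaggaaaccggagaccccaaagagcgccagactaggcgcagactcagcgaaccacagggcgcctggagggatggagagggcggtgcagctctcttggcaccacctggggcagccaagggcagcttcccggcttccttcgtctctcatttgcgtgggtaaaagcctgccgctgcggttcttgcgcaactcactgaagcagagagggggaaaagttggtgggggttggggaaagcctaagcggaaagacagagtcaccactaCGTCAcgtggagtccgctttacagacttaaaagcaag
Akr1c18 (chr13:4150597-4150896, minus strand): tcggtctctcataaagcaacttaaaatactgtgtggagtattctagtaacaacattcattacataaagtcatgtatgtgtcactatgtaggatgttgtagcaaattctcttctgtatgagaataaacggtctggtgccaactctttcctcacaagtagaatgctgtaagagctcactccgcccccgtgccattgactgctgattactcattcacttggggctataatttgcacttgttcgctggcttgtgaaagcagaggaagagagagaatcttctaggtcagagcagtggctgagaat
Ptgs2 had 1 match to the half-site, on the opposite strand and starting 13 bases after the RefSeq start of its window. That RefSeq start lies 93 bases before the gene start of the count table given above, so the match lies before the latter. For Tnfaip6 the 2 starts are 104 bases apart. The windows of Tnfaip6 and Akr1c18 had 0 matches to either motif. Of 32851 such windows, 20.8% held the half-site and 4.72% the NR5A motif. A match or its absence describes these letters alone.

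The EGF-like ligands and receptors that precede expansion did not move together. Of 7 members tested, 1 rose and 2 fell (42.9% called, against 47.8% of all genes). Ereg, the ligand epiregulin, stood at 0.834, 2.63 and 3.72 CPM in 16 C and at 6.03, 29.2, 3.98, 2.26 and 12.3 CPM in 4-week CD. Replicate 2 of 4-week CD was the highest, and replicate 8 alone lay within the 16 C range. Ereg passed (log2 fold change -2.02, SE 0.77, adjusted p = 0.0413) in 3 of 8 fits without 1 library. The adjusted p was 0.113 without 4-week CD replicate 2, 0.0582 without 4-week CD replicate 11, and 0.113, 0.104 and 0.0628 without 16 C replicates 1, 2 and 3. Areg, amphiregulin, had 4 reads in 16 C and 32 in 4-week CD and failed the filter on low counts, with a difference of mean log2(CPM + 1) of -1.21 (two-sided exact permutation test, p = 0.0714). Btc, betacellulin, did not pass (log2 fold change 0.79, SE 0.33, adjusted p = 0.0557). Adam17, the sheddase that frees these ligands, was higher (log2 fold change 1.32, SE 0.33, adjusted p = 0.00392), though at 0.27 and not called by total counts, and Erbb2, a receptor partner, lower (log2 fold change -2.64, SE 0.45, adjusted p = 0.000232), whereas Egfr was at -0.47 (adjusted p = 0.275).

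Early response genes of the LH surge were split too, with 2 of 10 tested higher and 3 lower (50.0% called against 47.8% of all genes), and 3 higher and 2 lower after the correction. Nr4a1, an orphan nuclear receptor induced within the ovulatory response, stood at 6.67, 7.62 and 11.2 CPM in 16 C and at 43.9, 77.1, 65.4, 49.7 and 25.7 CPM in 4-week CD. All 16 C libraries were lower, by 6.29-fold (log2 fold change -2.65, SE 0.40, adjusted p = 9.30e-05). Junb fell (-1.88, adjusted p = 0.000749) and lost its call after the correction (log2 fold change -0.69, adjusted p = 0.193), and Egr1 fell (-1.10, adjusted p = 0.0283) and was at 0.30 after it. Fosl2, an AP-1 subunit, rose instead, from 442 ± 171 CPM (SD, n = 5) in 4-week CD to 1202 ± 63.7 CPM (SD, n = 3) in 16 C (log2 fold change 1.38, SE 0.35, adjusted p = 0.00477, 0.41 and not called by total counts), and Runx1 rose by 1.00 (adjusted p = 0.0132). Pgr, the progesterone receptor that ovulating granulosa cells carry for a short time, was without a read in the 8 libraries. The largest limit that a 0 sets, 3 reads in 16 C replicate 1, is 2.50 CPM. Such limits cover counting error alone. Runx2, which is induced later in the ovulatory response, was at 353 to 484 CPM in 16 C and 401 to 761 CPM in 4-week CD and did not pass (log2 fold change -0.49, SE 0.33, adjusted p = 0.233). By total counts, with all genes shifted to -1.10, Runx2 was called lower (-1.47, adjusted p = 0.000749).

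**Figure D4:**
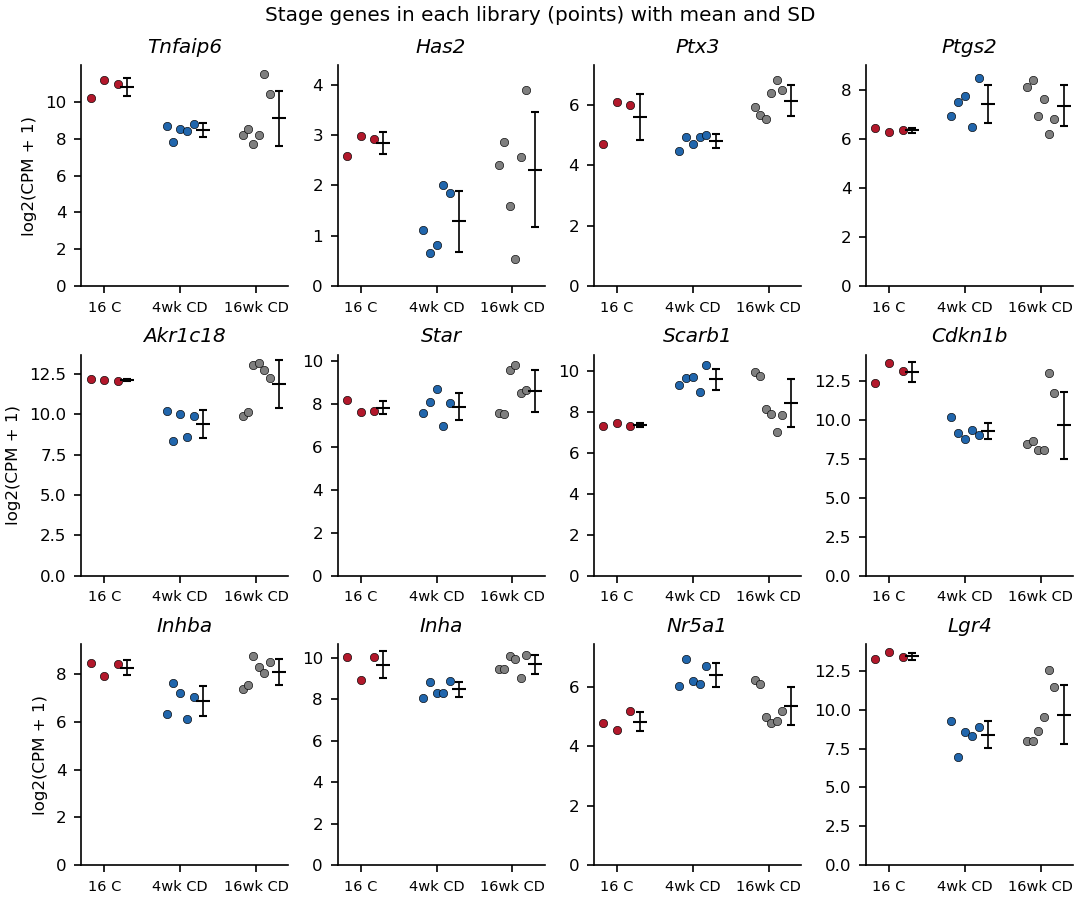
Log2(CPM + 1) of 12 stage genes in each library of 16 C (red, n = 3), 4-week CD (blue, n = 5) and 16-week CD (grey, n = 6), with the mean and SD as bars. Tnfaip6, Has2, Akr1c18, Cdkn1b, Inhba, Inha and Lgr4 are higher in every 16 C library than in any 4-week CD library, Ptgs2, Scarb1 and Nr5a1 are lower, and Star and Ptx3 overlap.

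Genes of luteinization and progesterone synthesis showed no common direction. Of 16 tested, 3 rose, 5 fell and 8 did not pass (50.0% called against 47.8% of all genes, median -0.34), and 2 rose and 3 fell after the correction. Star, Cyp11a1 and Hsd3b1, which serve the making of progesterone, did not pass in the main test. Star, which carries cholesterol into mitochondria, was at 287, 196 and 204 CPM in 16 C and at 188, 268, 406, 125 and 262 CPM in 4-week CD. Star overlapped between the groups and did not pass (log2 fold change -0.18, SE 0.35, adjusted p = 0.691, interval -0.92 to 0.56). Cyp11a1, which cleaves the side chain of cholesterol, averaged 1995 ± 405 CPM (SD, n = 3) in 16 C and 2721 ± 479 CPM (SD, n = 5) in 4-week CD (log2 fold change -0.50, SE 0.34, adjusted p = 0.242, interval -1.22 to 0.23). Hsd3b1, which makes progesterone from pregnenolone, averaged 3674 ± 93.9 CPM (SD, n = 3) and 3765 ± 899.7 CPM (SD, n = 5) (log2 fold change -0.10, SE 0.35, adjusted p = 0.839, interval -0.84 to 0.65), and passed as lower only with the correction (log2 fold change -1.06, adjusted p = 0.0283). The LH receptor Lhcgr (-0.93, adjusted p = 0.161), the prostaglandin F receptor Ptgfr (0.01, adjusted p = 0.99), the prolactin receptor Prlr (0.39, adjusted p = 0.421) and Sfrp4, a Wnt antagonist of luteal cells (-0.60, adjusted p = 0.142), did not pass either, although Sfrp4 was called lower after the correction (-0.89). Scaled by total counts, Star, Cyp11a1, Hsd3b1, Lhcgr and Sfrp4 were called lower, with a shift of all genes to -1.10. Under limma-voom with sample quality weights Cyp11a1 (-0.68, adjusted p = 0.0177) and Sfrp4 (-0.69, adjusted p = 0.0108) were called lower too.

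Akr1c18 (chromosome 13, 4132615 to 4150654), which inactivates progesterone and marks regressing luteal cells, was higher. It stood at 4642, 4504 and 4376 CPM in 16 C and at 1162, 332, 1050.2, 389 and 950.2 CPM in 4-week CD. The 16 C libraries lay within a narrow range and above all of 4-week CD, by 5.62-fold (log2 fold change 2.49, SE 0.42, adjusted p = 0.000226), and the call held in 8 of 8 fits without 1 library. The corrected difference missed the threshold (log2 fold change 0.91, adjusted p = 0.0557). The cell cycle inhibitors that rise when granulosa cells luteinize were higher as well. Cdkn1b (p27, chromosome 6, 134920401 to 134925513) stood at 5394, 13175 and 8895 CPM in 16 C and at 1149.7, 561, 447, 667 and 527 CPM in 4-week CD. It did not overlap and was 13.2-fold higher (log2 fold change 3.72, SE 0.43, adjusted p = 8.82e-06, log2 fold change 3.39, adjusted p = 2.97e-06 after the correction), and Cdkn1a (p21) rose by 2.03 (adjusted p = 5.43e-05).

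A receptor for the uptake of cholesterol was lower. Scarb1 (chromosome 5, 125277087 to 125341094), the receptor for high-density lipoprotein, stood at 158, 179 and 159 CPM in 16 C and at 643, 802, 845, 502 and 1265 CPM in 4-week CD. Its 16 C levels were all below 4-week CD, by 5.06-fold (log2 fold change -2.34, SE 0.37, adjusted p = 0.000127, log2 fold change -2.42, adjusted p = 7.42e-05 after the correction). Fdxr, part of the electron chain that serves Cyp11a1, fell (-1.73, adjusted p = 0.00122), as did the coactivator Cited4 (-1.84, adjusted p = 0.000747) and the vascular growth factor Vegfa (-1.04, adjusted p = 0.0382). These 3 were lower but not called after the correction, with values of -0.73, -0.43 and -0.84.

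Several genes of the growing follicle were higher in 16 C. Of 15 granulosa and FSH-response genes tested, 7 rose, 2 fell and 6 did not pass (60.0% called against 47.8% of all genes, median 0.23). After the correction 5 rose and 0 fell. Inhba, the activin and inhibin subunit, stood at 356, 241 and 349.9 CPM in 16 C and at 80.7, 197, 149, 70.1 and 132 CPM in 4-week CD. Every 16 C library exceeded every 4-week CD library (log2 fold change 1.27, SE 0.34, adjusted p = 0.00622), but after the correction it had a log2 fold change 0.94, adjusted p = 0.0511. Inha, the inhibin alpha subunit, was at 1068, 484 and 1059 CPM in 16 C and at 269, 457, 311, 319.8 and 472 CPM in 4-week CD. The groups were close but did not overlap (log2 fold change 1.19, SE 0.34, adjusted p = 0.00945, log2 fold change 1.89, adjusted p = 0.000699 after the correction), and without 16 C replicate 1 or 3 the adjusted p was 0.0506 or 0.0642.

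Igf1, a growth factor of healthy follicles, rose from 37.5 ± 9.96 CPM (SD, n = 5) to 175 ± 40.0 CPM (SD, n = 3) (log2 fold change 2.17, SE 0.29, adjusted p = 3.41e-05). The activin antagonist Fst rose by 1.17 (adjusted p = 0.00542), the FSH-induced cyclin Ccnd2 by 1.15 (adjusted p = 0.0123) and the estrogen enzyme Hsd17b1 by 0.95 (adjusted p = 0.0304). Of these, Fst (0.67) and Hsd17b1 (0.65) were not called after the correction. Scaled by total counts, Inhba (0.29), Inha (0.22) and Fst (0.15) were not called. Inhba and Inha lost their calls with a replicate block as well (adjusted p = 0.073 and 0.212). In that fit only replicates 1 and 2 of each group bear on the difference, so that a lost call there cannot be told from the loss of libraries. The transcription factors Nr5a1 (log2 fold change -1.67, SE 0.32, adjusted p = 0.000644) and Gata4, which fell (-1.68, adjusted p = 0.00399), were at -0.13 and -0.38 after the correction. The FSH receptor Fshr was at 5.25 to 7.44 CPM in 16 C and 0.584 to 12.3 CPM in 4-week CD and did not pass (log2 fold change 0.10, SE 0.62, adjusted p = 0.906, interval -1.21 to 1.41). Inhbb (-0.09, adjusted p = 0.853), Nr5a2 (-0.35, adjusted p = 0.463) and Foxl2 (-1.07, adjusted p = 0.0562) did not pass in the main test. Foxl2 was called lower in several other fits, as given above. By total counts Inhbb (-1.09) and Nr5a2 (-1.38) were called lower too, with a shift of all genes to -1.10. Inhbb was called higher after the correction (log2 fold change 1.87, adjusted p = 0.000942). Cyp19a1, the aromatase that FSH induces, had 21 reads in 16 C and 37 in 4-week CD (exact permutation p = 0.786), and Amh had 2 and 10 (exact permutation p = 0.786).

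**Figure D5:**
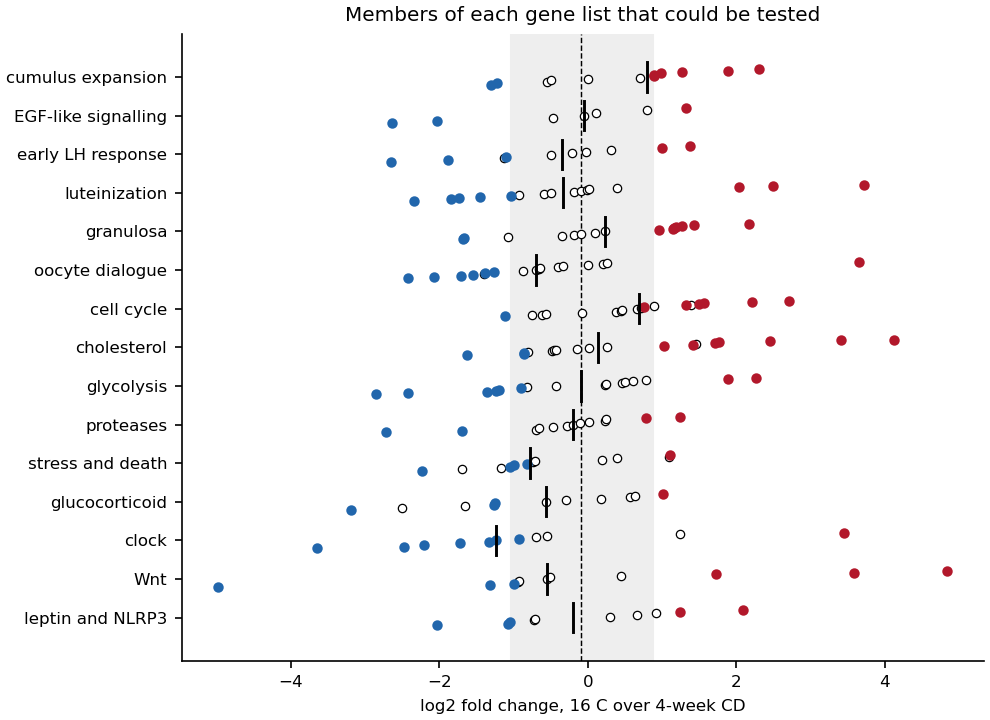
Log2 fold change of 16 C over 4-week CD (horizontal axis) for each list member tested, in 15 gene lists (vertical axis). Red and blue points passed an adjusted p of 0.05, open points did not, black bars are list medians, and the dashed line and grey band are the median (-0.09) and quartiles (-1.03 and 0.88) of all genes. Most lists hold genes on both sides.

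Genes of contact with the oocyte and of the cell cycle were described beside the stage lists. Gja1 (chromosome 10, 56377300 to 56390419) encodes connexin 43, the gap junction protein between CCs. It stood at 13409, 41858 and 15657 CPM in 16 C and at 3982, 785, 1468, 1167 and 1686 CPM in 4-week CD. All 16 C libraries were higher, with replicate 2 the highest (log2 fold change 3.66, SE 0.55, adjusted p = 8.90e-05, log2 fold change 3.27, adjusted p = 5.04e-05 after the correction). Of 17 genes that respond to oocyte signals or keep meiosis arrested, Gja1 alone rose and 6 fell (41.2% called against 47.8% of all genes). Among them Grem1, an antagonist of bone morphogenetic proteins that oocyte factors induce, fell (-1.71, adjusted p = 0.00201). So did the signal carrier Smad3 (-2.07, adjusted p = 0.000915), the guanine nucleotide enzyme Impdh1 (-2.42, adjusted p = 0.000301) and the cyclic GMP-making receptor Npr2 (-1.26, adjusted p = 0.00773). Npr2 was at -0.28 after the correction.

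Of 18 cell cycle genes, 6 rose and 1 fell (38.9% called against 47.8% of all genes, median 0.69). Rrm2, a subunit of ribonucleotide reductase, rose from 13.8 ± 7.44 CPM (SD, n = 5) to 96.2 ± 32.0 CPM (SD, n = 3) (log2 fold change 2.71, SE 0.38, adjusted p = 4.33e-05), Tyms, thymidylate synthase, by 2.22 (adjusted p = 3.48e-05), and the mitotic cyclin Ccnb2 by 1.57 (adjusted p = 0.00276). Mki67 was at -0.75 (adjusted p = 0.0906) and Top2a at -0.077 (adjusted p = 0.895), and neither passed. After the correction 4 were higher and 0 lower, without Ccnb2 (0.60), which was not called by total counts either (0.56). The 4 were Rrm2, Tyms, Cdk1 and Mcm2.

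Cholesterol synthesis held some of the larger rises, with 7 of 18 genes higher and 3 lower (55.6% called against 47.8% of all genes, median 0.13). Insig1, which holds back the sterol sensor and is itself induced when sterols are low, rose from 28.3 ± 9.50 CPM (SD, n = 5) to 509 ± 374 CPM (SD, n = 3) (log2 fold change 4.12, SE 0.45, adjusted p = 4.65e-06). Fdps rose by 2.45 (adjusted p = 0.000406) and Hmgcs1 by 1.72 (adjusted p = 0.00351). Srebf2, which encodes the regulator of the pathway, was lower (log2 fold change -1.62, SE 0.29, adjusted p = 0.000371) and at -0.058 after the correction, and Sqle (-0.81, adjusted p = 0.0662) and Cyp51 (-0.46, adjusted p = 0.247) did not pass.

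The Wnt list held the furthest values of the 15 lists plotted, in both directions (6 of 11 called, 54.5% against 47.8% of all genes). The lists were chosen with earlier results of these data known, so this rank describes the chosen members alone. Lgr4 (chromosome 2, 109917647 to 110014257), a receptor for R-spondins, stood at 9956, 13402 and 10506 CPM in 16 C and at 622, 124, 373, 309 and 474 CPM in 4-week CD. All 16 C libraries were above all of 4-week CD by 28.7-fold (log2 fold change 4.84, SE 0.47, adjusted p = 1.82e-06, log2 fold change 4.82, adjusted p = 4.61e-07 after the correction). Znrf3, the ubiquitin ligase that removes Wnt receptors and that R-spondins hold back, rose by 3.58 (adjusted p = 1.42e-06). Lrp5, a Wnt coreceptor, was found in 16 C replicate 2 alone, with 9 reads, against 524 reads in 4-week CD. It was at 0 to 1.18 CPM in 16 C and 16.3 to 31.4 CPM in 4-week CD (log2 fold change -4.98, SE 0.61, adjusted p = 1.43e-05). Ctnnb1, beta-catenin, fell (-1.31, adjusted p = 0.0129). Igsf11 (chromosome 16, 38901471 to 39027159), an adhesion protein outside the lists, stood at 1651, 3570.3 and 2611 CPM in 16 C and at 107, 75.9, 94.0, 113 and 147 CPM in 4-week CD, again without overlap (log2 fold change 4.56, SE 0.37, adjusted p = 6.63e-07).

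Of these lists the clock genes were called most often, 8 of 11 (72.7% against 47.8% of all genes), with 7 lower and a median of -1.24. Nr1d1, a repressor within the clock, fell (-3.64, adjusted p = 0.000207), as did Cry2 (-2.47, adjusted p = 2.36e-05), Nr1d2 (-1.33, adjusted p = 0.00871) and Arntl (-1.24, adjusted p = 0.00622), whereas Per3 rose by 3.45 (adjusted p = 1.91e-05). Nr1d1 overlaps Thra and Cry2 overlaps D930015M05Rik, each on the opposite strand, and Smart-seq2 does not mark the strand. Per3 overlaps Camta1 on the same strand. After the correction 6 were lower and 2 higher. The hour of collection is not given in the sources used here. Of 11 glucocorticoid-response genes 1 rose and 3 fell (36.4% called), and 1 rose and 5 fell after the correction, with Per1 lower (-3.19, adjusted p = 0.000443) and Fkbp5, a gene that glucocorticoids induce, lower (-1.25, adjusted p = 0.00344). Mt2 fell (-1.26, adjusted p = 0.0156), with an adjusted p of 0.0729 without 16 C replicate 1 and 0.0615 without 16 C replicate 3.

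The remaining lists were mixed, with 50.0% or less called in each against 47.8% of all genes. In glycolysis 2 of 16 rose and 6 fell (50.0% called), but 3 rose and 2 fell after the correction, with Hk2 higher (log2 fold change 2.27, SE 0.32, adjusted p = 4.67e-05), Ldhb higher by 1.89 (adjusted p = 0.000114) and Hk1, another hexokinase, lower (-2.42, adjusted p = 0.00166) and not called after it (log2 fold change -1.23, adjusted p = 0.0718). Gapdh was lower too, but its near-identical copies could share its reads, and its value is uncertain. Of 13 proteases and inhibitors 2 rose and 2 fell (30.8% called), with Mmp2 (-2.71, adjusted p = 0.00144) and Mmp14 (-1.70, adjusted p = 0.00475) lower. Mmp14 was not called after the correction (log2 fold change -0.98, adjusted p = 0.0811). Plau was higher by 1.24 (adjusted p = 0.00742), but was not called after the correction (log2 fold change 0.79, adjusted p = 0.0756) or by total counts (0.23), with an adjusted p of 0.137 without 16 C replicate 3. Of 12 stress and apoptosis genes 1 rose, Bax, by 1.10 (adjusted p = 0.00308), and 4 fell (41.7% called), and 1 rose and 2 fell after the correction. Bax was at 0.072 and not called by total counts. Bbc3, a p53 target, fell (-2.23, adjusted p = 0.0102), but was not called after the correction (log2 fold change -0.93, adjusted p = 0.273). Atf4 fell (-0.99, adjusted p = 0.0151) and was not called after the correction (log2 fold change -0.65, adjusted p = 0.076), with an adjusted p of 0.0751 without 16 C replicate 1 and 0.0953 without 16 C replicate 3.

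Of 10 leptin and NLRP3 inflammasome genes tested, 2 rose and 3 fell (50.0% called against 47.8% of all genes). Stat5a, a transcription factor of cytokine receptors, stood at 542, 777 and 720.0 CPM in 16 C and at 117, 121, 156, 245 and 132 CPM in 4-week CD. It was 4.24-fold higher without overlap (log2 fold change 2.08, SE 0.32, adjusted p = 0.000115). Jak2, the kinase of the leptin receptor, fell (-1.05, adjusted p = 0.00509), as did Stat5b (-1.08, adjusted p = 0.00535), which was not called after the correction (-0.40). Lepr, the leptin receptor itself, did not pass (-0.71, adjusted p = 0.216). Nlrp3 and Il10 had 0 reads in the 8 libraries.

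Outside the lists, the largest rises and falls among genes of at least 20 CPM that did not overlap were genes of varied function. Sept2, a septin of the cytoskeleton, stood at 14637, 21151 and 13035 CPM in 16 C and at 259, 289, 231, 189 and 644 CPM in 4-week CD. Zc3hav1, an antiviral RNA-binding protein, was at 5756 to 8354 CPM in 16 C and 100.2 to 192 CPM in 4-week CD (log2 fold change 5.50, SE 0.40, adjusted p = 6.63e-07). Both were among the most abundant genes of 16 C, and Sept2 was 49.1-fold higher (log2 fold change 5.62, SE 0.47, adjusted p = 6.63e-07). Slc24a5, a cation exchanger (log2 fold change 5.33, SE 0.44, adjusted p = 6.63e-07), the kinase Map3k1 (log2 fold change 5.08, SE 0.46, adjusted p = 8.97e-07) and the membrane protein Pdpn (log2 fold change 5.15, SE 0.52, adjusted p = 2.52e-06) were also higher, as was Abcg1, which exports cholesterol, at 147 to 652 CPM in 16 C and 0 to 7.42 CPM in 4-week CD. Tmprss13 had 425 reads in 16 C and 2 in 4-week CD, both in replicate 11. Ptafr, the receptor for platelet-activating factor, was highest in 16 C replicate 2, at 20.9, 269.9 and 16.1 CPM in 16 C and at 1.28, 0, 0.947, 4.52 and 3.80 CPM in 4-week CD, although all 3 libraries were above 4-week CD.

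The largest falls were of genes near 0 in 16 C. Foxp4, Spnb1, Lrrc8b, Mier2, Tmem132a and Nacc1 had between 10 and 27 reads in the 16 C libraries together and between 482 and 815 in 4-week CD, with log2 fold changes of -4.79 to -3.84. After the correction they were still called but nearer to 0, at -2.75 for Foxp4, -3.28 for Spnb1, -2.59 for Mier2, -2.14 for Tmem132a and -2.49 for Nacc1, except Lrrc8b (-4.47). The mitochondrially encoded mt-Co2 had 11 reads in 16 C and 721 in 4-week CD, most of them in replicates 8 and 11, and its call was lost without 16 C replicate 1, 2 or 3 (adjusted p = 0.0745, 0.102 and 0.0885).

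The third lean group lay across both. 16 C against 16-week CD gave 7 calls among 11343 genes tested (0.0617%, 6 higher and 1 lower, with 2633 genes at an unadjusted p under 0.05), and 16-week CD against 4-week CD gave 1935 of 11645 (16.6%, 1125 higher and 810 lower). These comparisons share their libraries with the main one and are given side by side only. The 7 genes were Nufip2, Phactr2, Hspa2, Sp1, Zfp334 and Cecr2, higher in 16 C, and Fut10, lower. Phactr2, for example, averaged 362 ± 57.6 CPM (SD, n = 3) in 16 C, 56.0 ± 19.2 CPM (SD, n = 6) in 16-week CD and 39.6 ± 12.2 CPM (SD, n = 5) in 4-week CD.

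The 16-week CD libraries were not alike. Over the tested genes the mean Spearman's rho of replicates 5, 8, 9 and 13 was 0.90 to 0.95 with the 16 C libraries and 0.78 to 0.81 with 4-week CD, whereas for replicates 1 and 2 it was 0.75 and 0.77 with 16 C and 0.88 with 4-week CD. The 50 most abundant genes took 24.3% to 30.4% of counts in replicates 5, 8, 9 and 13, and 14.9% and 15.5% in 1 and 2. TMM factors were 0.685 to 0.949 against 1.44 and 1.39. Ribosomal protein shares did not divide them, at 0.930% to 1.80% against 1.54% and 1.46%. Stage genes of the 16-week CD libraries were as wide, but did not all divide them in this way. Akr1c18 ranged from 975 to 9420.2 CPM (median 5921), Scarb1 from 131 to 997 CPM (median 259), Tnfaip6 from 211 to 2858 CPM (median 334), Lgr4 from 248 to 6090.4 CPM (median 569.5) and Cdkn1b from 265 to 8229.9 CPM (median 372). For Scarb1 the 16-week CD libraries reached the levels of both other groups, and for Lgr4 the highest stayed below 16 C. Akr1c18 was at 8407 and 9420.2 CPM in replicates 5 and 8, 7020 and 4823 CPM in 9 and 13, and 975 and 1114 CPM in 1 and 2. Tnfaip6 was at 211 and 296 CPM in replicates 5 and 8, against 2858 and 1349 CPM in 9 and 13. Cdkn1b was at 266 and 265 CPM against 8229.9 and 3362 CPM, and Lgr4 at 394 and 745 CPM against 6090.4 and 2789 CPM.

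For Akr1c18 the log2 fold change was -0.27 (SE 0.71, adjusted p = 0.819) in 16 C over 16-week CD and 2.76 (SE 0.65, adjusted p = 0.0159) in 16-week CD over 4-week CD. For Inhba these values were 0.056 (SE 0.34, adjusted p = 0.928) and 1.18 (SE 0.36, adjusted p = 0.0371), for Igf1 0.41 (SE 0.38, adjusted p = 0.491) and 1.69 (SE 0.35, adjusted p = 0.0107), for Ptgs2 -1.34 (SE 0.51, adjusted p = 0.168) and -0.074 (SE 0.42, adjusted p = 0.917), and for Lgr4 2.67 (SE 0.92, adjusted p = 0.147) and 2.17 (SE 0.80, adjusted p = 0.072).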

How the data were processed

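CCs of 8 mice were compared, in 3 libraries of 16 C and 5 of 4-week CD, assigned to groups by GEO's labels. From Smart-seq2 libraries the authors deposited raw counts of reads per gene, as whole numbers without normalization. The submitters' processing notes name Trim Galore 0.4.2, HISAT2 2.0.5 and GRCm38. The counting program, its annotation and any strand setting are not given in the sources used here. The table has 25965 entries, of which 18079 had a count in the 8 libraries, and all its coordinates are as in GRCm38. The comparison, the gene lists and the alternatives were chosen with earlier results of these data known.

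The test was edgeR 4.0.16 under R 4.3.3 (filterByExpr, TMM factors, robust quasi-likelihood F-test, two-sided, without a block), on the libraries of the groups compared, and p-values were adjusted by the Benjamini-Hochberg method over all genes tested. Standard errors were taken from the F statistic. CPM in the text are counts per 1000000, scaled by TMM factors over the 14 lean libraries. Genes that failed the filter, and library measures, were compared with a two-sided exact permutation test (scipy 1.17.1), genes as log2(CPM + 1). A count of 0 allows up to 3 reads. The text names 28 stage and reference genes, the 8 largest rises and 8 largest falls among called genes that did not overlap and reached 20 CPM in the higher group (gene models and pseudogenes left out), and up to 3 called members of each list with the smallest adjusted p. Other list members are named as examples, after their values were seen. Some genes that this rule names are not reported here. Of 86 genes so chosen, 18 overlap another entry with reads, Has2, Ptx3, Stat5a, Adam17 and Nr1d1 among them, and reads of the pair cannot be told apart. Older symbols were used for 3 list genes, and 2 of 271 could not be matched.

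Alternatives were DESeq2 1.42.0, limma-voom (limma 3.58.1) with sample quality weights, RLE factors, total counts only, no filter, at least 10 counts in each library, all 34 libraries, reads drawn down to the total of the shallowest library, a replicate block and leaving out each library. A correction for transcript GC content and length (GENCODE M21, natural splines with 5 degrees of freedom per library) was added after the data were seen. Replicate numbers 1 and 2 occur in both groups, but deviations of libraries with the same number correlated at 0.038 and 0.0092 over 11837 genes, so that they were not treated as pairs. No replicate columns were identical (0 of 13 pairs, smallest chi-square per degree of freedom 6.87). On simulated data for this comparison (11837 genes), 96% of 100 genes changed by a log2 of 3 and 43% of 100 changed by 1.5 were recovered, with 5.44% of calls false. No other gene was changed there, rises and falls were equal in number, and no GC gradient was put in. In the data 47.8% of genes were called, so these figures do not give the recovery or the false calls of the comparison itself.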

Additional observations from a re-analysis of the deposited data

Results flagged for a closer look

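Among the 5 libraries of 4-week CD, the highest or lowest value was tested for its distance from the others (Dixon's test) for 86 genes and 8 library measures. Of these 94 tests 11 stood out. Chance alone gives about 1 in 20 where values are normally spread, which was not tested here, so the 2 shares cannot be compared. The flag of Tmprss13 rests on 2 reads. No explanation was weighed.

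Replicate 2, the shallowest library, was the highest for Areg at 7.59 CPM (the others at 1.88 or less), for Ptgfr at 24.5 CPM (10.5 or less) and for Mmp14 at 270.4 CPM (108 or less), and had the fewest genes with a count, 13090. Replicate 11 was the highest for Sept2 at 644 CPM (289 or less), for Map3k1 at 203 CPM (83.2 or less) and for Tmprss13 at 0.345 CPM, with 0 in the others. Replicate 1 was the highest for Gja1 at 3982 CPM (1686 or less) and for Amh at 1.03 CPM (0.189 or less), and the lowest for Srebf2 at 53.0 CPM (71.4 or more). Replicate 7 was the highest for Cd52 at 296 CPM (118 or less). Sept2, Map3k1 and Gja1 were nevertheless lower in each of these libraries than in any of 16 C.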

How the results depend on the processing

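The count of 5655 genes called stayed within 1.5 times under DESeq2 (5947), limma-voom with quality weights (7634), RLE factors (5729), total counts (7465), no filter (5824), at least 10 counts (3995), all 34 libraries (5137), counts drawn down (3832) and the GC and length correction (4320), and lay between 4258 and 5816 when 1 library was left out. With the replicate block it was 3445 (1897 higher, 1548 lower), although the numbers do not pair the libraries. In that fit only replicates 1 and 2 of each group bear on the difference. Fewer calls with the block therefore cannot be told from the loss of libraries. Total counts gave 1070 higher and 6395 lower. Expansion genes called fell from 8 to 2 with at least 10 counts, 1 with all 34 libraries, 2 with counts drawn down, 3 with the block and 4 with the correction, and were 2 to 9 without 1 library. Luteinization genes called were 14 by total counts and 5 with the correction, against 8, and granulosa genes 4 with the block and 5 with the correction, against 9. Ptx3 turned to -0.16 by total counts and Inhbb to 1.87 with the correction. The cause of these moves was not tested.

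Without 1 library the difference of 16 C from 4-week CD was 14.3 to 16.2 percentage points for the 50 most abundant genes, -3.96 to -2.23 for mitochondrial and -1.85 to -1.43 for ribosomal protein genes, and -0.719 to -0.65 in the TMM factor. Such subsets lie above the threshold by their size alone, since an exact permutation test of 2 against 5 libraries cannot go below p = 0.0952, nor of 3 against 4 below 0.0571. Over 82 named genes and 18 alternatives, 1332 of 1445 values kept their direction and side of the threshold, 90 lost their call, 21 gained one and 2 turned, and 31 were not tested. Genes that failed the filter kept their side with a pseudocount of 0.1. Depth limits genes of few reads such as Has2, Areg and Pgr.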
